A study of Arabidopsis thaliana with 18 samples.

Results

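Root apices of the Arabidopsis thaliana ecotype Columbia (Col) were compared between 1 h and 2 h after the seedlings had been moved to medium without phosphate. The comparison was defined by the labels and used the 3 libraries of wild-type Col at 1 h and the 3 libraries at 2 h, which are 6 of the 9 Col libraries and 6 of the 18 libraries of the series. The series followed wild-type seedlings of Col and of Landsberg erecta (Ler) at 0, 1 and 2 h, with 3 libraries in each of the 6 groups, to study how root growth adapts to phosphate starvation. All groups shared 7 days on nylon mesh over dilute Murashige and Skoog medium with 500 µM phosphate. The labels describe the 0 h group as moved to medium with phosphate, whereas its treatment field reads no treatment. The 1 h and 2 h groups differ in time only, and neither has a control moved to phosphate medium for the same time. The mechanical move, the time of day and the loss of phosphate therefore cannot be told apart in any of the changes below. The apices were about 0.5 cm long and were sampled as bulk tissue, so fewer cells of a type and less RNA per cell cannot be told apart either.

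Plants sense phosphate at the root tip, where low phosphate stops growth locally, and in the whole plant, where the PHR1 transcription factors turn on phosphate transporters, phosphatases and lipid remodelling. A move of seedlings is also a touch and wounding stimulus, and such stimuli are known to start short bursts of calcium, jasmonate and ethylene signalling within minutes. Jasmonate is made from membrane lipids, acts by the removal of the JAZ repressors and induces the enzymes that break it down. Cytokinin acts through a phosphorelay that rapidly induces its own inhibitors, the type-A response regulators.

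Raw counts per feature summed to 25705177, 28081354 and 29277597 in the 1 h libraries and to 27820009, 24533746 and 25911691 in the 2 h libraries. Of the 32852 features listed for both ecotypes, 20599 passed the filter on low counts and were tested with edgeR's quasi-likelihood test, with Benjamini-Hochberg adjustment over all of them. Levels are given below as CPM, which are counts scaled to a common library size, in the order of replicates 1, 2 and 3. The 8 meristem markers and the 5 root cap markers were detected in every Col library, and their summed levels overlapped between 1 h (207 to 283 CPM and 52.2 to 77.4 CPM) and 2 h (221 to 247 CPM and 53.2 to 62.8 CPM). No single marker of either list passed in edgeR without the block, while 1 meristem marker did in DESeq2. The sums hide the meristem marker WOX5, with means of 0.725, 9.06 and 4.07 CPM at 0, 1 and 2 h. Its first-hour rise passed (edgeR adjusted p = 6.63e-05). Each 2 h library was below the 1 h library of its own number (log2 −1.155, edgeR adjusted p = 0.117, and 0.0417 with the block). The 8 markers of differentiated root summed to 503 to 1010 CPM at 1 h and 507 to 605 CPM at 2 h. In this list 1 gene, the xylem regulator TMO5, fell (edgeR adjusted p = 0.0436). Its call was lost without 1 h replicate 2 or any one 2 h library (up to 0.313). The 14 markers of green shoot tissue summed to 66.1 to 138 CPM at 1 h and 50.3 to 95.9 CPM at 2 h, with RBCS2B at 0 in all 6 libraries. None of the 11 tested passed in edgeR without the block or in DESeq2 (1 at an unadjusted p under 0.05). With the block CA1 fell (edgeR adjusted p = 0.0433), from a low mean of 0.909 CPM at 1 h to 0.139 CPM at 2 h.

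Between 1 h and 2 h, 460 features changed (2.23% of those tested), of which 325 fell (1.58%) and 135 rose (0.655%). The change was at least 2-fold for 195 of the falls and 79 of the rises. Libraries with the same replicate number deviated together, and a fit that took the replicate number as a block called 1163 features, 374 higher and 789 lower. All 460 features were among the 1163. The count depended on single libraries: without 1 h replicate 2 it was 165, with 57 higher and 108 lower, and it was 485 and 637 without 1 h replicates 1 and 3 and 198, 214 and 190 without 2 h replicates 1, 2 and 3.

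Most of what changed in the second hour went back. Between 0 h and 1 h, 2282 features (11.1%) had passed the threshold in Col. Of these, 249 had risen at 1 h and fell by 2 h, and 108 had fallen at 1 h and rose by 2 h. A single feature rose in both hours. None fell in both in edgeR, where 27 did at an unadjusted p under 0.05, and 1 did in DESeq2. Another 26 features rose and 76 fell in the second hour after no change past the threshold in the first. The other 1924 features of the first hour did not pass in the second, 852 of them after a rise and 1072 after a fall. Because both contrasts use the same 1 h libraries, a chance deviation of these moves a feature up in one and down in the other, and these class counts are a description. With the replicate block the classes held 547 features back after a rise, 264 back after a fall, 3 that kept rising, 8 that kept falling, 107 that rose late and 234 that fell late. Of the 26 late rises 23 and of the 76 late falls 60 were in the same class with the block.

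**Figure D1:**
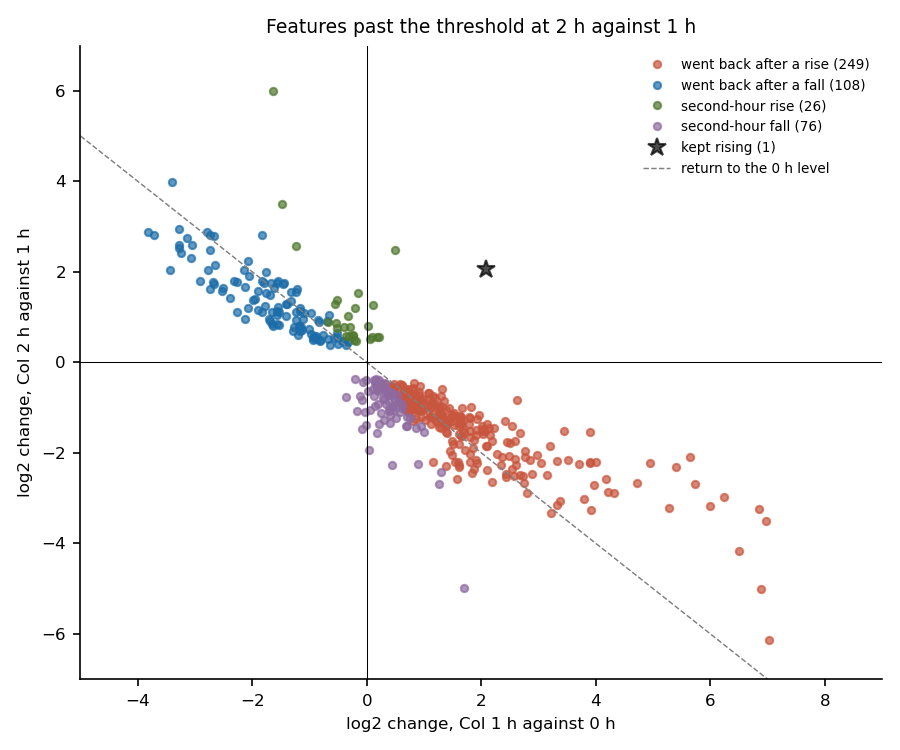
Each point is 1 of the 460 features past the threshold in the second hour, with the log2 change of Col from 0 h to 1 h on the x axis and from 1 h to 2 h on the y axis, coloured by time class, and the dashed line marks a full return to 0 h. The 249 features back after a rise lie at the lower right and the 108 back after a fall at the upper left, near the line, and the star is the 1 feature that kept rising; both axes use the same 1 h libraries.

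The 249 features that went back after a rise had a median level of 14.5 CPM at 0 h, 41.4 CPM at 1 h and 16.6 CPM at 2 h. Their median log2 change was 1.39 in the first hour and −1.25 in the second, with second-hour changes between −6.13 and −0.45. At 2 h a median of 4.1% of the first-hour rise was left (quartiles −7.3% and 13.5%). Of the 249, 229 no longer differed from 0 h past the threshold, and 20 were still above it. All 249 were lower at 2 h in each of the 3 same-numbered pairs, which their choice for a fall in these same libraries favours. The 1 h library of replicate 2 was the highest 1 h library for 220 of them (88.4%), against 32.0% of all features tested. Without that library 97 of the 249 still passed, and the median change of the 249 was −0.96. The part of this library in the class was not tested further.

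The largest fall was that of FAMT, which encodes a methyltransferase annotated for farnesoic acid. Its level was 1.31, 0.0868 and 1.39 CPM at 0 h, rose to 55.5, 247.5 and 62.0 CPM at 1 h and was 1.19, 2.57 and 1.46 CPM at 2 h. Every 1 h library stood above every 0 h and 2 h library, and replicate 2 was the highest at 1 h. The log2 change from 1 h to 2 h was −6.13 ± 0.793 (SE, n = 3 libraries per time, edgeR adjusted p = 0.000734), and less than 1% of the rise was left.

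AT1G22810, annotated in RefSeq as an integrase-type DNA-binding protein, stood at 14.2, 17.1 and 13.3 CPM at 1 h and at 0.685, 0.913 and 0.884 CPM at 2 h. Its 3 libraries at each time lay close together, and the log2 change was −4.17 (adjusted p = 2.87e-05). It had been 0.0875, 0.0434 and 0.348 CPM at 0 h, so it was still above its starting level at 2 h (log2 2.34, adjusted p = 0.0178). AT5G01380, a homeodomain-like protein, fell from 28.8, 83.7 and 15.9 CPM to 4.47, 4.40 and 2.42 CPM (log2 −3.51, adjusted p = 0.00253). It too was still above its level at 0 h, by a log2 of 3.48 (adjusted p = 0.0135). LOG1, which encodes an enzyme that releases active cytokinin from its nucleotide, fell from 5.72, 29.95 and 7.72 CPM to 1.12, 1.95 and 1.27 CPM (log2 −3.33, adjusted p = 0.00596). Replicate 2 was again the highest 1 h library, and the libraries of the 2 times did not overlap.

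**Figure D2:**
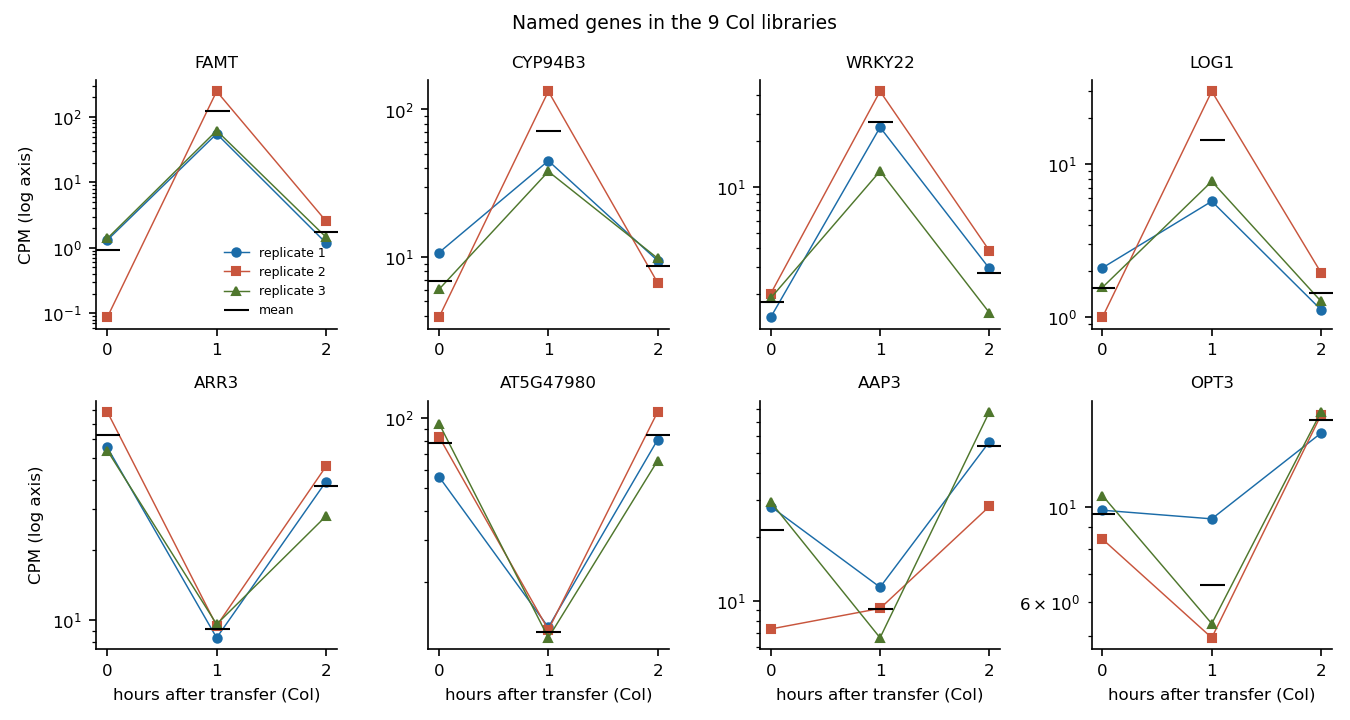
Level of 8 named genes in each Col library, in CPM on a log axis, against hours after transfer; lines join libraries of the same replicate number and black bars mark the means. FAMT, CYP94B3, WRKY22 and LOG1 peak at 1 h, where replicate 2 is the highest library, ARR3 and AT5G47980 dip there, and AAP3 and OPT3 are highest at 2 h.

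Jasmonate genes rose in the first hour and were lower again after the second. Of 32 tested genes of 3 lists (12 JAZ repressors, 13 genes of synthesis and 7 of turnover), 19 had risen at 1 h, 31 were lower at 2 h than at 1 h, and 10 of these passed the threshold. None of the 32 differed past the threshold between 2 h and 0 h in edgeR without the replicate block. There 1 had an unadjusted p under 0.05, and 1 passed in DESeq2. The lists lack JAZ13 and, of turnover, JOX1, JOX2, JOX3 and JOX4, because RefSeq does not give these symbols for their loci. Of these, JOX4 (AT2G38240, described below) was still above 0 h at 2 h past the threshold. All 19 genes that had risen at 1 h were highest in replicate 2 there. Without that library 5 of the 32 passed, as without 2 h replicate 1 and without 2 h replicate 3; 6 passed without 2 h replicate 2, 13 without 1 h replicate 1 and 15 without 1 h replicate 3. The median log2 change of the 32 was −1.1 with all libraries and −0.43 without 1 h replicate 2, and with the replicate block 14 passed.

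Among the repressors, 1 of 12 passed. JAZ10, a repressor gene with splice forms that resist removal, was 1.62, 1.78 and 3.39 CPM at 0 h, 11.3, 69.1 and 13.6 CPM at 1 h and 2.99, 5.15 and 3.42 CPM at 2 h. The libraries of 1 h and 2 h did not overlap, and the log2 change was −3.03 (adjusted p = 0.0277). Its call was lost without 1 h replicate 2, where the adjusted p was 0.246, and also without any one of the 2 h libraries.

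Among the synthesis genes 4 of 13 fell. LOX6, a lipoxygenase for the first step, fell from 120.8, 237.5 and 85.7 CPM to 56.5, 72.4 and 55.1 CPM (log2 −1.27, adjusted p = 0.0234). AOC2, an allene oxide cyclase of the middle of the pathway, fell from 12.99, 34.3 and 9.10 CPM to 4.11, 3.40 and 3.84 CPM (log2 −2.31, adjusted p = 0.00496). The 2 h values of both lay below all 1 h values and near those of 0 h, which were 45.8 to 49.3 CPM for LOX6 and 3.86 to 7.26 CPM for AOC2. OPCL1, which activates the precursor for chain shortening, changed by −0.97, and JAR1, which joins jasmonate to isoleucine to give the active hormone, by −1.08 on the log2 scale. The LOX6 call was lost without 1 h replicate 2, 2 h replicate 1 or 2 h replicate 3 (adjusted p up to 0.112), the JAR1 call without 1 h replicate 2 or any one 2 h library (up to 0.127), and the OPCL1 call without 2 h replicate 3 (0.051).

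Of the turnover list 5 of 7 fell, FAMT included, although its annotated substrate is not jasmonate. CYP94B3, which oxidises the active hormone, fell from 44.9, 132.8 and 38 CPM to 9.44, 6.68 and 9.80 CPM (log2 −3.06 ± 0.491, SE, adjusted p = 0.00346). CYP94C1, which carries the oxidation further, fell by 2.54 on the log2 scale (adjusted p = 0.00299). The libraries of the 2 times did not overlap for either gene, and both passed without any one library. The sulfotransferase gene ST2A changed by −1.499 and IAR3, an amidohydrolase that cleaves amino acid conjugates of jasmonate and auxin, by −1.23 on the log2 scale. The ST2A call was lost without 1 h replicate 2 or any one 2 h library (adjusted p up to 0.385), and the IAR3 call without 1 h replicate 2, 2 h replicate 1 or 2 h replicate 2 (up to 0.0619).

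Regulators of stress and wound responses were among those that went back. WRKY22, a factor downstream of immune kinases, was 1.40, 2.00 and 1.87 CPM at 0 h, 24.5, 42.2 and 12.7 CPM at 1 h and 2.92, 3.82 and 1.498 CPM at 2 h (log2 −3.27, adjusted p = 0.00122). WRKY11 was the other of 14 listed WRKY genes to pass (log2 −1.09, adjusted p = 0.032), and its call was lost without any one library other than 1 h replicate 3 (up to 0.147). The WRKY list as a whole did not fall: 6 of the 14 were higher at 2 h, with a median log2 change of −0.04. With the replicate block 1 of the 14 rose and 2 fell. Of genes outside the naming rule, chosen after their values were seen, WRKY48 fell from 28.1, 65.7 and 20.5 CPM to 8.03, 7.80 and 6.99 CPM (log2 −2.32). Without 2 h replicate 3 its adjusted p was 0.0548. The ethylene-response type factor ABR1 fell by 2.98 on the log2 scale (adjusted p = 0.00299). ABR1 and WRKY48 were both still above 0 h at 2 h, by a log2 of 3.26 and 3.07. WOX11, a homeobox gene known for its role in adventitious rooting, stood at 8.21, 20.07 and 7.11 CPM at 1 h and at 0.937, 1.91 and 1.15 CPM at 2 h, against 0.347 to 1.79 CPM at 0 h.

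Of 16 defence genes 2 fell and 1, MYB34 described below, rose, and 9 were higher at 2 h (median log2 change 0.06). Of 14 hypoxia genes 1 fell and 9 were higher (median 0.06), and of 14 abscisic acid and dehydration genes 1 fell and 3 were higher (median −0.61). PEPR1, the receptor of danger peptides, fell from 114, 184 and 97.6 CPM to 49.0, 44.9 and 54.0 CPM (log2 −1.42, adjusted p = 0.00246). TAT3, a tyrosine aminotransferase gene known for its induction by jasmonate, stood at 124.8, 665.9 and 95.6 CPM at 1 h and at 20.3, 54.7 and 19.2 CPM at 2 h (log2 −3.24, adjusted p = 0.0386). It had been 1.57 to 3.5 CPM at 0 h and was still above that at 2 h (log2 3.62, adjusted p = 0.0231). SRO5, of the hypoxia list, fell from 31.5, 77.9 and 36.8 CPM to 8.86, 4.36 and 13.1 CPM (log2 −2.47, adjusted p = 0.00849). The dehydrin gene ERD10, of the abscisic acid and dehydration list, fell by 1.36 on the log2 scale (adjusted p = 0.0326). The TAT3 call was lost without 1 h replicate 2 or any one 2 h library (up to 0.348), and the ERD10 call without any one library other than 1 h replicate 3 (up to 0.177). Of 18 touch and cold early genes none passed in the second hour in edgeR with or without the replicate block, nor in DESeq2, and 2 had an unadjusted p under 0.05.

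Short DNA motifs were counted in the 250 bases before the annotated start of each gene, on both strands, in 20579 promoters read from the RefSeq assembly TAIR10.1. The motif ACGCGT or CCGCGT, the core to which calmodulin-binding CAMTA factors are known to bind, was in 3.69% of all promoters and in 22 of the 249 (8.84%) that went back after a rise. It was in 8.33% of the 852 promoters of features that rose at 1 h and did not pass in the second hour, so it did not set the returning features apart. It was in 3.70% of the 108 features back after a fall and in 0.933% of the 1072 that fell and did not pass in the second hour. The G-box CACGTG was in 7.16% of all promoters and 8.84% of the 249, and in 18.8% of the 32 jasmonate promoters. The P1BS motif GNATATNC, the known binding motif of PHR1, was in 5.49% of all promoters, 4.42% of the 249 and 10.2% of the 108. The telo box AAACCCTA was in 3.61% of all promoters and in 1 of the 249 (0.402%), and the W-box core TTGAC was in 45.2% and 51.0%. These shares were not particular to the returning features. In the 852 the telo box was in 1.64%, the W-box core in 53.8% and the G-box in 9.27%. The telo box was in 1.21% of the 1072 and in 0.926% of the 108. A match is a description of these letters and not a shown binding site.

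The stretches below show the CAMTA-type motif in capitals in 5 promoters of genes that went back, each 60 bases on the gene's own strand, 5′ to 3′ (ACGCGG is CCGCGT read on the other strand). WRKY48 and AT5G02230, a haloacid dehalogenase-like hydrolase, are shown because they fell the most at a mean of at least 10 CPM, and ERD7, a dehydration-associated gene, and the calmodulin genes CAM2 and CAM3 because they hold the motif 2 times. Promoters that overlap another annotated gene were left out, among them that of AT2G17660, which holds the motif 2 times and had the largest fall of the 22 (log2 −2.7) at a mean of 2.78 CPM. The 5 stretches lie at chr5:20090581-20090640 (+) for WRKY48, chr5:447939-447998 (+) for AT5G02230, chr2:7757930-7757989 (−) for ERD7, chr2:17140123-17140182 (+) for CAM2 and chr3:21036223-21036282 (−) for CAM3.
WRKY48: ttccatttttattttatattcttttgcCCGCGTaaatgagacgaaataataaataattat
AT5G02230: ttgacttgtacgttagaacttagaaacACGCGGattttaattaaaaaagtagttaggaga
ERD7: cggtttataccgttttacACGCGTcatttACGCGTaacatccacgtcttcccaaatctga
CAM2: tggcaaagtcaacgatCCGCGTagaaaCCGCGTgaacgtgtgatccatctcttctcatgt
CAM3: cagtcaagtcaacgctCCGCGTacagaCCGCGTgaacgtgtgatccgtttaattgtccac

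Both calmodulin genes encode the calcium sensor itself and are near-identical in their coding sequence, so reads could be split between them. CAM2 stood at 374, 406 and 357 CPM at 1 h and 270.0, 295 and 252 CPM at 2 h, and CAM3 at 311, 390.2 and 326 CPM and 225, 260.5 and 232 CPM. The 3 libraries of each time did not overlap, and the log2 changes were −0.48 (adjusted p = 0.0114) and −0.52 (adjusted p = 0.0164). ERD7 fell by 1.24 on the log2 scale (adjusted p = 0.0312) and AT5G02230 by 2.28 (adjusted p = 0.000923). The calls of CAM2 and CAM3 were lost without 1 h replicate 2, 2 h replicate 1 or 2 h replicate 3 (adjusted p up to 0.132), and that of ERD7 without 1 h replicate 2 or any one 2 h library (up to 0.226).

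The 108 features that went back after a fall had a median level of 33.3 CPM at 0 h, 11.3 CPM at 1 h and 26.5 CPM at 2 h. Their median log2 change was −1.57 in the first hour and 1.20 in the second, with second-hour changes of 0.38 to 3.98. A median of 35.8% of the fall was left at 2 h (quartiles −3.4% and 49.3%). Of the 108, 84 no longer differed from 0 h past the threshold and 24 were still below it. The lowest 1 h library was replicate 2 for 62, replicate 3 for 34 and replicate 1 for 12 of them. Without 1 h replicate 2, 44 of the 108 passed and their median change was 1.13.

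Among the genes named by rule the lowest adjusted p was that of AT5G47980, annotated as an HXXXD-type acyltransferase. It stood at 56.1, 83.1 and 94.7 CPM at 0 h, 12.8, 12.4 and 11.5 CPM at 1 h and 80.8, 106.2 and 65.7 CPM at 2 h (log2 2.78 ± 0.231, SE, adjusted p = 2.17e-05). The 3 values at 1 h lay close together, below every other Col library. CYP82F1, a cytochrome P450 gene named after its values were seen, moved likewise, from 202.7, 218.6 and 254.5 CPM to 33.6, 23.7 and 24.6 CPM and back to 169.1, 176.9 and 145.2 CPM (log2 2.59, adjusted p = 2.17e-05). A bHLH gene, AT5G51780, rose by 2.60 on the log2 scale (adjusted p = 7.16e-05), and NAI1, the bHLH factor of ER body formation, by 1.79 (adjusted p = 0.00217). Both were also named after their values were seen.

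Genes of transport and secondary metabolism also rose after low values at 1 h. AAP3, an amino acid permease gene, did not pass in the first hour (adjusted p = 0.0805), is counted with the late rises and was back after a fall only with the replicate block (adjusted p of the first hour = 0.0439). It stood at 11.6, 9.18 and 6.67 CPM at 1 h and 56.3, 27.9 and 77.9 CPM at 2 h (log2 2.57 ± 0.444, SE, adjusted p = 0.00595). PMT6, a polyol transporter gene, rose from 4.94, 1.84 and 2.199 CPM to 13.98, 18.9 and 29.9 CPM (log2 2.81, adjusted p = 0.00324). Neither gene's libraries overlapped between the times. AT2G31540, a GDSL-type lipase or esterase, rose by 2.88 on the log2 scale (adjusted p = 0.000179) and AT1G23160, of the GH3 family of acyl amido synthetases, by 2.94 (adjusted p = 0.0375). The latter call was lost without any one library other than 1 h replicate 3 (up to 0.165). MYB34, a regulator of tryptophan-derived glucosinolates, rose from 54.4, 32.8 and 36.7 CPM to 99.7, 117.3 and 83.9 CPM (log2 1.28, adjusted p = 0.00217), near its 101.1 to 117.1 CPM of 0 h. Of 20 tested XTH genes, whose enzymes cut and rejoin wall xyloglucan, 2 rose. XTH33 rose from 3.43, 1.14 and 2.13 CPM to 10.2, 19.9 and 8.37 CPM (log2 2.52, adjusted p = 0.00784). XTH19 rose by 0.60 on the log2 scale (adjusted p = 0.0281) and lost its call without 1 h replicate 1, 1 h replicate 2, 2 h replicate 1 or 2 h replicate 2 (up to 0.167).

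The type-A cytokinin response regulators were the list with the largest share of rises. Of 10 tested, 7 had fallen at 1 h and 5 rose in the second hour, with median log2 changes of −1.90 and 1.55. ARR3 stood at 55.4, 78.8 and 53.7 CPM at 0 h, 8.37, 9.43 and 9.58 CPM at 1 h and 39.4, 45.9 and 28 CPM at 2 h. The change in the second hour was 2.05 ± 0.206 (log2, SE, adjusted p = 0.00012), and ARR3 remained below 0 h (log2 −0.73, adjusted p = 0.0385). ARR4 fell from 120.4 to 137.3 CPM at 0 h to 36.7 to 41.1 CPM at 1 h and was 96.2 to 120.9 CPM at 2 h (log2 1.53 ± 0.142, SE, adjusted p = 5.54e-05). The 1 h libraries of both genes lay below all other Col libraries.

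ARR6 rose from 8.66, 6.86 and 8.66 CPM to 32.8, 22.5 and 35.4 CPM (log2 1.91, adjusted p = 0.00265). ARR8 (AT2G41310) rose by 1.13 on the log2 scale (adjusted p = 0.000316) and ARR9 by 1.1 (adjusted p = 0.0214). None of these 3 differed from 0 h past the threshold at 2 h. ARR7 had a log2 difference of 1.57 (adjusted p = 0.106, and 0.00679 with the replicate block), ARR5 one of 1.68 (adjusted p = 0.282) and ARR15 one of −0.16. Between 4 and 5 regulators passed whichever of the 6 libraries was left out. ARR9 was the one that lost its call, without 1 h replicate 1, 1 h replicate 2, 2 h replicate 2 or 2 h replicate 3 (up to 0.125). The median of the 10 was 1.42 without 1 h replicate 2.

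**Figure D3:**
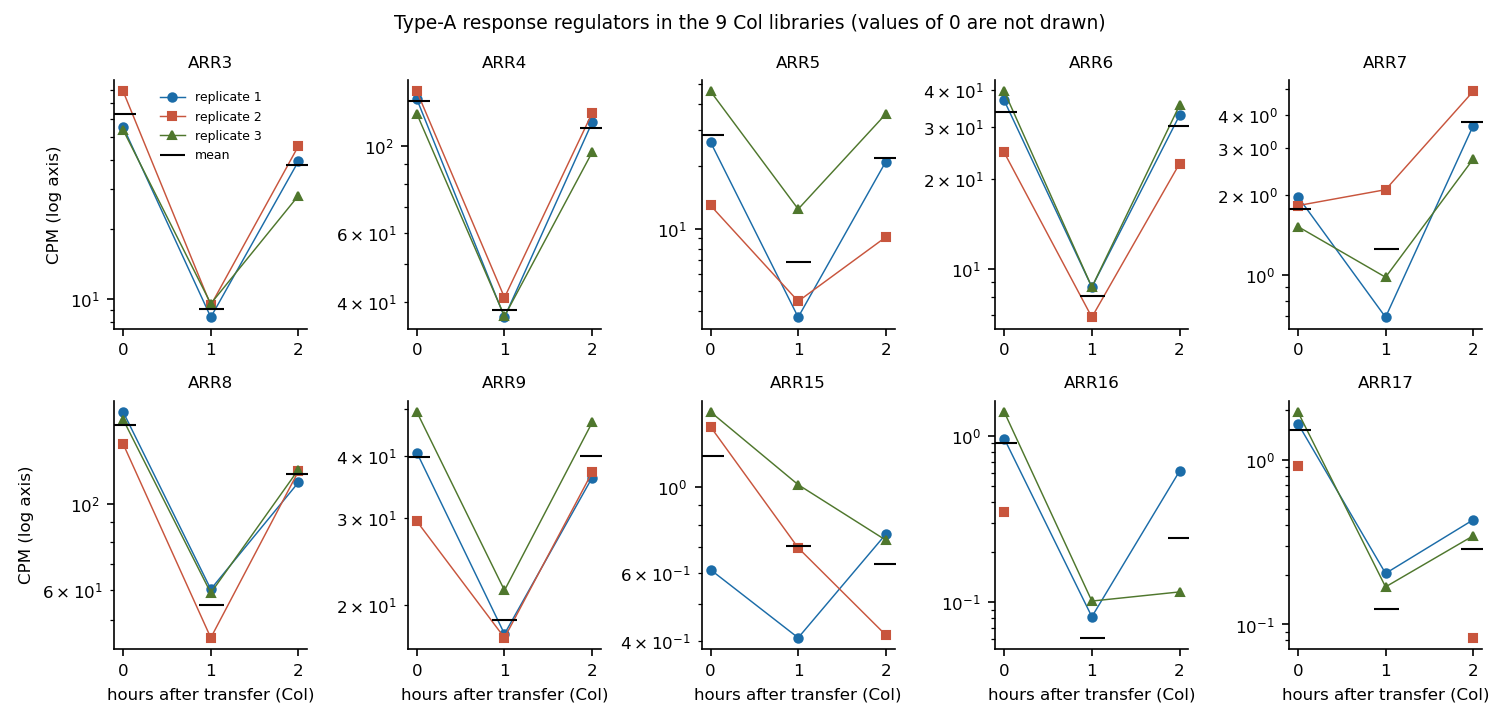
Level of the 10 tested type-A response regulators in each Col library, in CPM on a log axis, against hours after transfer; lines join libraries of the same replicate number, black bars mark the means, and values of 0 are not drawn. ARR3, ARR4, ARR6, ARR8 and ARR9 dip at 1 h and are higher at 2 h, with no overlap between the libraries of the 2 times.

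Genes that make, move and inactivate cytokinin were looked at after these values were seen, as 1 of 7 gene families described in this way. Of 17 tested, 3 rose and 1, LOG1, fell. ABCG14, which exports cytokinin from root to shoot, fell from 144.8 to 166.2 CPM at 0 h to 82.2, 60.6 and 65.7 CPM at 1 h and rose to 153.5, 145.5 and 158.6 CPM at 2 h (log2 1.14, adjusted p = 0.000179). UGT76C2 and UGT85A1, whose enzymes attach glucose to cytokinin, rose by 1.76 (adjusted p = 0.000786) and 1.80 (adjusted p = 0.00635) on the log2 scale. Without 1 h replicate 3, 4 genes rose and 3 fell, and without any other one of the 6 libraries 3 rose and 1 fell.

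Genes of gibberellin and abscisic acid metabolism, looked at in the same way, moved in both directions. GA2OX6, which inactivates gibberellin, stood at 94.5, 172.2 and 75.4 CPM at 1 h and 24.5, 23.9 and 22.1 CPM at 2 h (log2 −2.28, adjusted p = 0.00467). The receptor gene GID1B fell by 1.12, while GA20OX1, GA20OX2 and GA3OX2 of gibberellin synthesis rose by 2.31, 2.14 and 1.38 on the log2 scale, from levels of at most 2 CPM at 1 h. Of the 13 genes tested, 3 rose and 2 fell. Without 1 h replicate 2 none rose and 1 fell, without 2 h replicate 2 1 rose and 1 fell, and without 1 h replicate 3 1 rose and 3 fell. CYP707A3, which breaks down abscisic acid, fell from 29.9, 12.2 and 21.2 CPM to 4.86, 4.07 and 3.92 CPM (log2 −2.30, adjusted p = 0.00523). NCED9, of abscisic acid synthesis, rose by 2.05 on the log2 scale (adjusted p = 0.0263). The NCED9 call was lost without 1 h replicate 2, 1 h replicate 3, 2 h replicate 1 or 2 h replicate 2.

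Auxin genes were mostly lower at 2 h. Of 21 listed auxin-response genes 2 fell and none rose, 8 fell with the replicate block, and their median log2 change was −0.83. IAA13, which encodes a repressor of auxin response, fell from 40.9, 46.2 and 33.5 CPM to 25.7, 21.5 and 20.6 CPM (log2 −0.83, adjusted p = 0.0067). IAA14, the repressor known for blocking lateral root initiation, fell from 59.1, 67.7 and 49.3 CPM to 29.4, 38.3 and 31.5 CPM (log2 −0.83, adjusted p = 0.0145). Neither gene overlapped between the times. The IAA14 call was lost without 1 h replicate 2, 2 h replicate 1 or 2 h replicate 3 (up to 0.0984), and the list count was between 1 and 7 without 1 library. Of 12 tested genes of auxin synthesis and transport, looked at after their values were seen, 4 fell, against 1.58% of all features tested. Among them were TAA1 of auxin synthesis (log2 −1.18) and the efflux carriers PIN3 (−0.80) and PIN7 (−0.56). None of the 4 passed without 1 h replicate 2 or without 2 h replicate 1, 1 did without 2 h replicate 3 and 3 did without 2 h replicate 2. GATA23, a gene of lateral root founder cells, fell from 7.97, 9.84 and 7.14 CPM to 2.38, 3.28 and 2.96 CPM (log2 −1.53, adjusted p = 0.0267). It did not pass in the first hour (adjusted p = 0.0651) and did so with the replicate block (0.0216), which places it among the genes back after a rise. Its call was lost without 1 h replicate 2 or any one 2 h library (up to 0.139).

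Methionine sulfoxide reductases and genes of tryptophan synthesis were also looked at after their values were seen. Over all features tested 1.58% fell. Of the methionine sulfoxide reductases of type B, which repair oxidised methionine, 3 of 9 fell, namely MSRB6 (log2 −1.74), MSRB7 (−1.22) and MSRB8 (−2.102). None of them passed without 1 h replicate 2, without 2 h replicate 1 or without 2 h replicate 3. Of 7 tryptophan synthesis genes, ASB1 (log2 −0.76) and TSB2 (−0.72) fell, and none passed without 1 h replicate 2 or 2 h replicate 3, while 1 passed without 1 h replicate 1, 2 h replicate 1 or 2 h replicate 2. The members of both families include close copies between which reads could be split.

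The feature that kept rising was TI1, a trypsin inhibitor gene. It stood at 0.306, 0.217 and 0.130 CPM at 0 h, 1.103, 1.47 and 0.271 CPM at 1 h and 2.38, 5.73 and 3.77 CPM at 2 h. Its log2 change was 2.09 in the first hour (adjusted p = 0.0408) and 2.06 ± 0.49 (SE) in the second (adjusted p = 0.0386). The levels were low, 1 h replicate 3 lay within the 0 h values, and the second-hour call was lost without 1 h replicate 1, 1 h replicate 3, 2 h replicate 2 or 2 h replicate 3 (up to 0.16). With the replicate block a protein kinase gene, AT1G61640, with means of 14.7, 19.6 and 25.7 CPM at 0, 1 and 2 h, and AT2G41810, of a family of unknown function, with means of 0.465, 1.61 and 4.69 CPM, also rose in both hours.

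No feature fell in both hours without the block, and 8 did with it. Among them were CASP5, of the Casparian strip scaffold, with means of 22.7, 12.6 and 6.004 CPM at 0, 1 and 2 h, and TIP2;3, a vacuolar aquaporin gene, with means of 177.6, 70.0 and 40.04 CPM. RSL2, a root hair regulator, had means of 58.3, 31.2 and 19.8 CPM. The other 5 were MEE15, AGT3 and the loci AT2G32150, AT5G37540 and AT1G32700.

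The 26 features that rose late had a median log2 change of 0.80, from 0.48 to 5.99, and 12 of them were above 0 h at 2 h past the threshold. BGLU28, a glucosidase gene known for its induction by sulfur shortage, was near the detection limit at 1 h with 0.0817, 0 and 0 CPM and stood at 2.05, 1.29 and 2.31 CPM at 2 h. Its 3 libraries held 2 counts in all at 1 h and 148 at 2 h, a ratio of 78.5 relative to the library totals with an exact 95% interval of 21.4 to 655 that covers counting error only. The adjusted p was 0.00574. AT5G26220 (GGCT2;1), a ChaC-like gene of glutathione breakdown on the same sulfur list, rose from 0.204, 0.477 and 0.338 CPM to 2.85, 3.94 and 4.88 CPM (log2 3.49, adjusted p = 0.0115). These were the 2 of 12 sulfur genes that passed, and the libraries of the 2 times did not overlap for either.

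OPT3, a phloem iron and copper transporter gene, was the 1 of 15 iron genes to pass, at 9.40, 4.95 and 5.35 CPM at 1 h and 14.9, 16.4 and 16.7 CPM at 2 h (log2 1.29 ± 0.214, SE, adjusted p = 0.00452). Of the 15 iron genes 10 were lower at 2 h (median log2 change −0.3), and 0.655% of all features tested rose. AT3G25700, an aspartyl protease gene, rose from 9.11, 8.92 and 8.39 CPM to 15.3, 22.3 and 16.1 CPM (log2 1.02, adjusted p = 0.00234). Hsp70-2 rose from 35.6, 21.5 and 31.7 CPM to 67.7, 53.4 and 91 CPM (log2 1.26, adjusted p = 0.0147). Its call was lost without 1 h replicate 2 (0.0933) or 2 h replicate 3. Of 27 tested chaperone genes of the HSP60, HSP70, HSP90 and ClpB families, looked at after this value was seen, 25 were higher at 2 h and 5 passed. The other 4 were CLPB4 (log2 0.90), Cpn60beta2 (0.81), CR88 (0.56) and Hsp81.4 (0.52), of which Hsp81.4 has close copies. None of the 27 passed without 1 h replicate 2 or without 2 h replicate 3, 1 passed without 1 h replicate 1, 2 h replicate 1 or 2 h replicate 2, and 6 passed without 1 h replicate 3. None of 11 listed heat shock genes passed in edgeR or DESeq2, and 2 had an unadjusted p under 0.05.

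The 76 features that fell late had a median log2 change of −0.87, from −4.98 to −0.36, and 19 were below 0 h at 2 h past the threshold. HB-7, a homeobox gene of the dehydration response, stood at 22.6, 34.0 and 11.8 CPM at 1 h and 5.84, 2.82 and 4.07 CPM at 2 h (log2 −2.42, adjusted p = 0.00812). At 0 h it had been 4.86 to 14.2 CPM, overlapping the 1 h values. With the replicate block HB-7 and AT4G37700 passed in the first hour (adjusted p = 0.0282 and 0.0446), which places them among the genes back after a rise. Of genes outside the naming rule, chosen after their values were seen, GTR1, a glucosinolate and gibberellin transporter gene, fell by 1.41 on the log2 scale (adjusted p = 0.00721). The terpene synthase gene TPS13, chosen likewise, fell by 2.70 (adjusted p = 0.00822), at a mean under the 5 CPM that the rule asked for. The uncharacterised genes AT5G11070 and AT4G37700 fell by 1.57 (adjusted p = 0.0375) and 1.42 (adjusted p = 0.0458). Both calls were lost without 1 h replicate 2 or any one 2 h library, and that of AT4G37700 also without 1 h replicate 1 (up to 0.309).

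**Figure D4:**
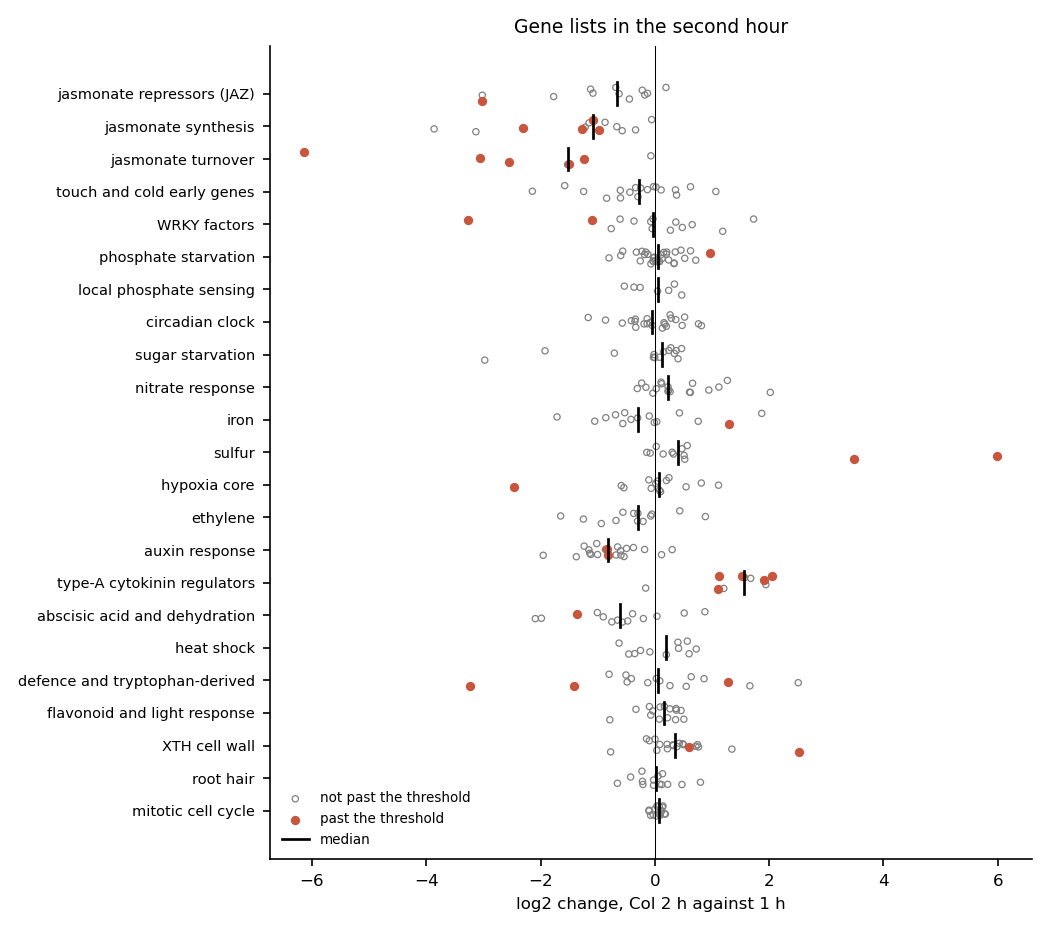
Second-hour log2 change in Col of each tested member of the gene lists, 1 row per list, with members past the threshold filled and the median of each list as a bar. Of the 32 jasmonate genes 31 lie left of 0, the median of the type-A regulators is 1.55, and 13 of the 23 lists have a member past the threshold.

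Most of the first-hour rise was neither reversed nor continued past the threshold. The 852 features that rose at 1 h and did not pass in the second hour had a median log2 change of −0.48 in that hour, 86 of them were higher at 2 h than at 1 h, and 28 were so in all 3 pairs. A median of 43.8% of their rise was left, and 230 were above 0 h at 2 h past the threshold. The 3 with the largest rises among these, at a mean of at least 5 CPM, nonetheless had lower values at 2 h. AT2G38240, a 2-oxoglutarate and Fe(II)-dependent oxygenase, is the JOX4 that was left out of the jasmonate turnover list. It stood at 0.175, 0 and 0.130 CPM at 0 h, 59.4, 464.9 and 83 CPM at 1 h and 6.92, 59.4 and 20.8 CPM at 2 h (log2 −2.81, adjusted p = 0.157). With the replicate block its adjusted p was 0.00898, and each 2 h library was below the 1 h library of its own number. AT5G52050, a MATE-type efflux protein gene, had a log2 difference of −2.43 (adjusted p = 0.118, and 0.0165 with the block), and BCB, a blue copper protein gene, one of −1.81 (adjusted p = 0.222, and 0.105 with the block).

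Other genes, outside the naming rule and chosen after their values were seen, were high at both times. RNS1, a ribonuclease gene induced by phosphate shortage and wounding, stood at 7.44, 3.56 and 5.04 CPM at 0 h, 119, 100.3 and 71.7 CPM at 1 h and 83.5, 171 and 164 CPM at 2 h. The libraries of 1 h and 2 h overlapped (log2 0.52, adjusted p = 0.51), and RNS1 was far above 0 h at 2 h (log2 4.70, adjusted p = 7.18e-06). RD29A, a dehydration and cold gene, was 12.2 to 35.04 CPM at 0 h, 348 to 741 CPM at 1 h and 197.5 to 541.5 CPM at 2 h, with overlap between the last 2 times (2 h against 0 h log2 3.80, adjusted p = 0.0034). ELIP1, of the early light-inducible proteins, was 106.7 to 233.5 CPM at 1 h and 97.0 to 262.9 CPM at 2 h (2 h against 0 h log2 3.54, adjusted p = 0.000932). Of the 15 flavonoid and light response genes 6 had risen at 1 h, none passed in the second hour in edgeR or DESeq2 (1 at an unadjusted p under 0.05), and 5 were above 0 h at 2 h.

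The 1072 features that fell at 1 h and did not pass in the second hour had a median second-hour log2 change of 0.24, a median of 80.7% of their fall was left, and 440 were below 0 h at 2 h past the threshold.

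Of 32 tested genes of the phosphate starvation response 1 passed, a share near the 2.23% of all features tested, and 18 were higher at 2 h (median log2 change 0.05). MGD2, which makes galactolipid in place of phospholipid, stood at 8.44, 10.5 and 8.52 CPM at 0 h, 2.57, 1.65 and 2.098 CPM at 1 h and 4.68, 4.32 and 3.304 CPM at 2 h (log2 0.96, adjusted p = 0.0368), still below 0 h (log2 −1.16, adjusted p = 0.0108). Its call was lost without 1 h replicate 2, 1 h replicate 3, 2 h replicate 1 or 2 h replicate 2 (up to 0.216). With the replicate block SQD2, of sulfolipid synthesis, and the phosphatase gene PS2 passed as well. The noncoding RNA IPS1 was 1.02, 1.28 and 0.914 CPM at 1 h and 1.95, 0.581 and 1.58 CPM at 2 h, and SPX1, a phosphate sensor gene, was 36.6, 8.88 and 19.2 CPM and 18.6, 15.8 and 19.7 CPM. The libraries overlapped for both, and neither passed. None of 7 local phosphate sensing genes passed in edgeR without the block or in DESeq2, although 3 had an unadjusted p under 0.05. With the block 1 of the 7 fell.

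None of 18 nitrate response genes passed in edgeR without the block, where 6 had an unadjusted p under 0.05, while 3 passed in DESeq2 and 6 rose with the block. NRT2.1, the high-affinity nitrate transporter gene, was 7.64, 0.918 and 7.78 CPM at 1 h and 26.1, 17.39 and 22.8 CPM at 2 h, and the times did not overlap (adjusted p = 0.223, and 0.0336 with the block). The other 5 were its partner NRT3.1, the repressor genes LBD37, LBD39 and HRS1, and G6PD3. None of 18 mitotic genes, 23 clock genes, 13 ethylene genes, 14 sugar starvation genes and 14 root hair genes passed in edgeR without the block. The numbers with an unadjusted p under 0.05 there were 0, 2, 5, 2 and 2, and DESeq2 called 0, 0, 2, 1 and 0. With the block 1 clock gene rose and 1 fell. In that fit 2 ethylene genes, 1 sugar starvation gene and 1 root hair gene fell, and no mitotic gene passed. Across the 23 lists 12 of 351 genes rose and 18 fell, against 0.655% and 1.58% of all features.

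The same hour was measured in Ler, whose libraries share none with the Col contrast. In Ler 144 features rose (0.699%) and 83 fell (0.403%) between 1 h and 2 h. Of the 249 Col features back after a rise, 238 were lower at 2 h in Ler and 57 fell past the threshold there, with a median log2 change of −0.70. Of the 108 back after a fall, 105 were higher in Ler, 56 rose past the threshold, and the median was 0.91. Of the 36 genes named by rule that passed in Col, 13 passed in the same direction in Ler and none in the opposite one. FAMT, AT1G22810, WRKY22 and PEPR1 fell in both, and AT5G47980, ARR3, MYB34, PMT6 and OPT3 rose in both. AOC2 was the 1 gene of the 36 whose second-hour change had the other sign in Ler. It had fallen there in the first hour (log2 −1.37, adjusted p = 0.0437) and had a log2 difference of 0.24 in the second (adjusted p = 0.804), and the ecotypes' changes differed by 2.55 (adjusted p = 0.743, unadjusted p = 0.000288). Of the 32 jasmonate genes 27 were lower at 2 h in Ler and 3 passed, and of the 10 type-A regulators 9 were higher and 3 passed.

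Features were also chosen on Ler alone, so that the choice did not use the Col 1 h libraries. A deviation that libraries of the same replicate number share across ecotypes is not removed by this: of the 878 features that rose at 1 h in Ler, the highest 1 h library was replicate 2 for 432 (49.2%) in Ler and for 673 (76.7%) in Col, against 32.6% and 32.0% of all features. These 878 features had a median second-hour log2 change of −0.69 in Col, against 0.004 for all features tested. Of them 802 (91.3%) were lower at 2 h in Col, 209 (23.8%) fell past the threshold and 3 rose. The 526 features that fell at 1 h in Ler had a median of 0.34 in Col, 433 (82.3%) were higher, 74 (14.1%) rose past the threshold and 3 fell. Without Col 1 h replicate 2 the medians were −0.42 and 0.24.

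**Figure D5:**
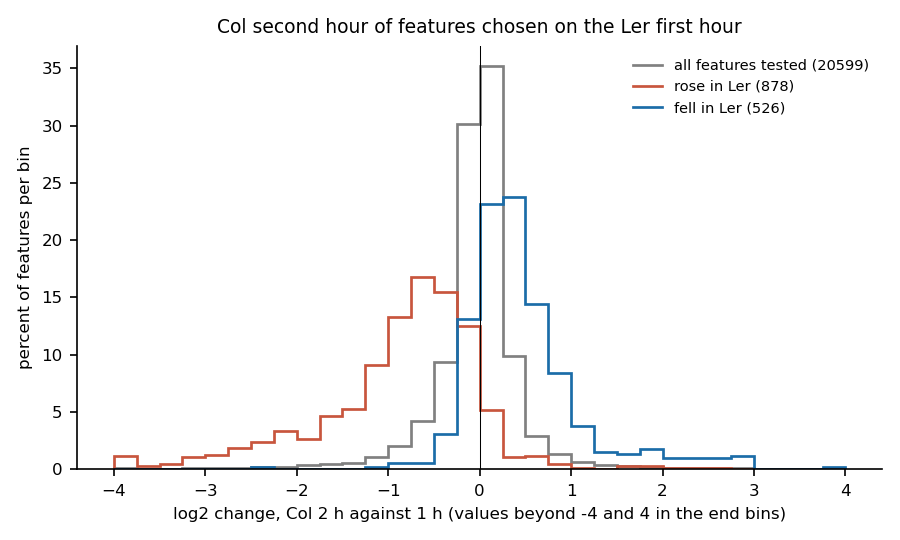
Distribution of the second-hour log2 change in Col (x axis) as the percentage of features per bin (y axis), for features that rose at 1 h in Ler, features that fell there and all features tested. The first group is shifted left, with a median of −0.69, and the second right, with a median of 0.34, around the median of 0.004 for all features.

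The difference between the second-hour changes of the ecotypes was tested directly. No feature passed in edgeR, where 1201 had an unadjusted p under 0.05, and 9 passed in DESeq2. None of the changes described above can therefore be called particular to Col. With the replicate block 1 feature passed, AT3G46190, annotated as a TRAF-like protein. It stood at 2.70, 4.29 and 2.00 CPM at 1 h and 0.540, 0.208 and 0.192 CPM at 2 h in Col, and at 1.67, 2.02 and 0.795 CPM and 3.79, 3.05 and 1.84 CPM in Ler. Every Col library fell and every Ler library was higher within its number (adjusted p of the difference = 0.0131 with the block and 0.401 without).

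The libraries of 1 h and 2 h did not overlap for 2998 features (14.6%), far more than the 460 that passed, so a lack of overlap between 3 and 3 libraries was common. Of the 39 genes named by rule, 36 passed the threshold and 23 did so without any one of the 6 libraries. The call was lost by 13 of the 36 without 1 h replicate 2, by 12, 10 and 11 without 2 h replicates 1, 2 and 3, by 5 without 1 h replicate 1 and by 1 without 1 h replicate 3.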

How the data were processed

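Poly(A)-selected, strand-specific, paired-end RNA libraries were deposited by the authors as raw read counts per feature, 1 table per library, per the labels. The submitters' processing notes name TopHat 2, Bowtie 2 and TAIR 10; their roles, the counting tool and the annotation are not given in the sources used here. Symbols and promoters came from RefSeq TAIR10.1, matched by locus identifier (32835 of 33602 Col features). Tests were run in R 4.3.3 with edgeR 4.0.16 and limma 3.58.1. Features with too few reads were removed by filterByExpr (10 counts in the median-sized library, 15 in total), which left 20599 and removed 12253. Libraries were scaled by TMM, and 6 group means were fitted to all 18 libraries (12 residual degrees of freedom). P-values were adjusted by Benjamini-Hochberg within each contrast, with a threshold of 0.05. Levels in CPM use TMM-scaled library sizes; a count of 3 corresponds to 0.103 to 0.123 CPM in the 6 libraries before scaling.

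The labels call the samples biological replicates, numbered 1 to 3. Same-numbered 1 h and 2 h libraries had deviations that correlated at 0.462, 0.416 and 0.528 across features, and differently numbered ones at −0.287 to −0.206. The numbers were therefore used for the replicate block and for the counts of same-numbered pairs. Results given without mention of the block come from a fit that did not pair the samples. The pairing rests on the data and not on a stated batch. No 2 libraries were identical.

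Time classes combine the 1 h against 0 h and 2 h against 1 h contrasts. Genes named by rule were the 4 largest changes per class (mean of at least 5 CPM, no overlap between times). Up to 2 rises and 2 falls past the threshold per gene list and genes past the interaction were added. The last were the 3 largest first-hour rises, with the same mean minimum, that did not pass in the second hour and were above 0 h at 2 h past the threshold. Of 382 list genes 368 matched a RefSeq symbol or synonym and 14 were left out; all 35 markers matched. The comparison, lists and rules were chosen with earlier results of these data known. The alternatives were RLE size factors, DESeq2 1.42.0, 2 other filters, replicate blocks, fewer libraries and each library left out. The procedure was tested on simulated counts for this contrast (20383 features). It recovered 53.06% and 60% of 2-fold rises and falls and 86% and 82% of 4-fold ones, with 13 false calls among 153. The simulated libraries were drawn independently, without the deviations that same-numbered libraries share in the data. These rates therefore need not hold for the real libraries.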

Additional observations from a re-analysis of the deposited data

Results flagged for a closer look

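The second-hour change of AT3G46190 differed between the ecotypes, with a log2 difference (Ler minus Col) of 4.23 in the fit with the replicate block (adjusted p = 0.0131, edgeR). The gene fell in all 3 Col pairs and was higher at 2 h in all 3 Ler pairs. Without the block the difference was 4.18 (adjusted p = 0.401). Levels were under 5 CPM in every Col library.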

How the results depend on the processing

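The count of 460 features changed (135 higher, 325 lower) was 885 (287, 598) with DESeq2, 1163 (374, 789) with the replicate block, 1218 (404, 814) with the replicate block within ecotype, 123 (45, 78) with Col libraries only, 784 (251, 533) with both that and the block, and 66 (28, 38) with only the 6 libraries contrasted. Leaving out 1 library gave 165 to 637 in all, 57 to 175 higher and 108 to 509 lower. RLE size factors, no filter on low counts and a mean of at least 1 CPM gave 425 to 471. Of the 249 features back after a rise and the 108 back after a fall, the counts became 426 and 198 with DESeq2, 547 and 264 with the replicate block, 560 and 300 with the block within ecotype, 66 and 43 with Col libraries only and 384 and 205 with Col libraries and the block. Leaving out 1 library gave 81 to 380 and 44 to 157. The 26 late rises and 76 late falls became 88 and 171, 107 and 234, 101 and 240, 2 and 12, and 44 and 139 in the same order, and 10 to 48 and 10 to 133 when 1 library was left out. The 1 feature that kept rising became 3 with either block, 0 with Col libraries only, 2 with these and the block, and 0 to 1 without 1 library. The 0 that kept falling became 1 with DESeq2, 8 with the replicate block, 14 with the block within ecotype, 10 with Col libraries and the block, and 0 to 1 without 1 library. The 0 features that differed between ecotypes became 9 with DESeq2, 1 and 2 with the blocks, and 0 to 1 without 1 library. The median Col change of features that fell in Ler was 0.34, 0.55 for those with a 2-fold change in Ler, and 0.24 to 0.50 without 1 library; that of features that rose in Ler was −0.83 to −0.42. No named gene changed direction under any alternative run. The cause of these differences was not tested, except that fits of fewer libraries have fewer residual degrees of freedom. All 39 named genes kept their side of the threshold with RLE size factors, 38 did with DESeq2 and 37 with the replicate block, 19 with Col libraries only and 12 with only the 6 libraries contrasted. The replicate block made passing calls of 2 named genes and lost none.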
